A study of Mus musculus with 2 samples.

Results

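Osteoblasts, the cells that lay down bone, and early osteocytes, the cells that become enclosed in it, made up a small class of the cells sorted from mouse knee joints: 113 of 9247 cells that passed the filter in the trace library and 21 of 6533 in the pulse library, 134 of 15780 in all. A cell belonged to the class when it had at least 5 unique molecular identifiers (UMIs, each standing for 1 captured RNA molecule) of Col1a1, at least 3 of Bglap and Bglap2 together, and no more than 1 of Acan, the cartilage proteoglycan. Cells were first required to have at least 500 detected genes and no more than 10% of UMIs from mitochondrial genes. The rule uses the counts of Col1a1, Bglap, Bglap2 and Acan, so their levels in the class are given as description.

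The mice carried a tamoxifen-inducible Cre under Procr, the gene of the endothelial protein C receptor, and a tdTomato reporter (Procr-CreER;tdTomato). All animals received tamoxifen at 4 weeks of age. The trace library came from cells taken 4 weeks after tamoxifen and the pulse library from cells taken 2 days after it, with 3 mice pooled in each and 1 library per group. Cells in which Cre was active at the time of tamoxifen, and their descendants, are expected to carry the reporter whatever they become; the sort kept tdTomato-positive cells that lacked CD45, Ter119, CD31 and the dead-cell dye DAPI. The labels name knee joint cartilage as the tissue and superficial cells as the cell type, and the protocol also names the periosteum, the bone-forming sheath of long bones.

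Osteoblasts arise from mesenchymal progenitors under the transcription factors Runx2 and Sp7 and secrete type I collagen (Col1a1 with Col1a2), osteocalcin (Bglap, Bglap2), bone sialoprotein (Ibsp) and osteopontin (Spp1). Alkaline phosphatase (Alpl) frees phosphate for the mineral. Cells that become embedded switch on Dmp1, an acidic matrix protein, and the peptidase Phex; mature osteocytes make sclerostin (Sost) and the phosphate hormone Fgf23.

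The promoters of Dmp1, Spp1 and Bglap are shown because Dmp1 divides the class, Spp1 is an abundant matrix gene that differed across that division, and Bglap helps to choose the cells. The letters are RefSeq reference sequence of build GRCm38.p6 from 250 bases before to 50 after the gene's start, on the gene's own strand; capitals mark ACCACA, the core letters of the motif bound by Runx proteins, which was searched on both strands. Dmp1 lies at chr5:104202367-104202666 on the plus strand, Spp1 at chr5:104434861-104435160 on the plus strand and Bglap at chr3:88384417-88384716 on the minus strand.
Dmp1: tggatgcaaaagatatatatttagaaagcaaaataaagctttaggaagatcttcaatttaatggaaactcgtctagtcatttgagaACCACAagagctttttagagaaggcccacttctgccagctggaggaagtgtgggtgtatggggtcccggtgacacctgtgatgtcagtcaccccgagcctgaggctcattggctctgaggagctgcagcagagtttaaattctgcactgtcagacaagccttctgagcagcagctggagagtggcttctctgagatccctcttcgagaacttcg
Spp1: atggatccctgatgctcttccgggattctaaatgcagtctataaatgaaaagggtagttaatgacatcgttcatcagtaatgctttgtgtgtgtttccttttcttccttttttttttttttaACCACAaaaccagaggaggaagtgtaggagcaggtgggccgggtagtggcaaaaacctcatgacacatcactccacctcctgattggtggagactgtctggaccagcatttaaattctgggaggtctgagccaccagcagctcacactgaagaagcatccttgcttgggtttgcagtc
Bglap: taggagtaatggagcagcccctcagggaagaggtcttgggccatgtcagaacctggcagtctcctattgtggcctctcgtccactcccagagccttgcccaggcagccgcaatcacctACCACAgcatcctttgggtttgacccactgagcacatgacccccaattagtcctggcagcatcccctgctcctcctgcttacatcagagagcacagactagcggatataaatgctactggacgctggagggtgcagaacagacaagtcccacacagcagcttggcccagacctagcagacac
Each window holds ACCACA once, beginning 164 bases before the start in Dmp1, 128 before it in Spp1 and 132 before it in Bglap. The same letters occur in 16.8% of all 32851 RefSeq promoter windows of this length, so their presence describes these windows and is no evidence of a bound site. Dmp1 (chr5:104202613-104214102), Ibsp (chr5:104299171-104311469) and Spp1 (chr5:104435118-104441050) lie near one another on the plus strand in the GENCODE annotation. Mepe (chr5:104325329-104338611) lies between Ibsp and Spp1. Bglap (chr3:88383501-88384464) and Bglap2 (chr3:88377736-88378699) are near-identical neighbours: 434 of 440 aligned bases of their transcripts were the same, so the split of reads between them is uncertain and their sum is the safer measure.

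With 1 library per group no difference could be tested against replicates. Levels are given as CPM, a gene's UMIs summed over a group's cells and scaled to a common total, and ratios carry 95% exact Poisson intervals that cover counting error only; cells of 1 library share their source and are not replicates. A gene counted as measured in a comparison with at least 20 CPM in a group, and as higher or lower at 2-fold. The class held 449270 UMIs in the trace library, with 910 to 23192 per cell and a median of 2842, and 47807 UMIs in the pulse library, with 1009 to 7679 and a median of 1801. Of the class's UMIs, 14.8% in the trace library and 2.20% in the pulse library came from ribosomal RNA-associated transcripts. Xist was present with 123 UMIs in the trace cells and 0 in the pulse cells, while the Y-linked Ddx3y had 1 and 10 UMIs, and all cells of the 2 libraries were split the same way. Sex, age, time after tamoxifen and library therefore cannot be told apart between trace and pulse. No barcode of the class occurred in both libraries.

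The label was checked with Ibsp, a marker that the rule does not use. In trace cells Ibsp was detected in 102 of 113, with a median of 12 UMIs and a maximum of 127; in pulse cells it was detected in 19 of 21, with a median of 14 and a maximum of 62. After thinning every cell to 2000 UMIs, 84.6% of the trace cells (66 of 78, 95% exact binomial interval 74.7 to 91.8%) had an Ibsp UMI, against 5.78% (2.81 to 10.4%) of neutrophil-marker cells, whose median depth was 2388 UMIs and which gauge free RNA. Col1a1-positive cells of the trace library with 2 or fewer Bglap UMIs had an Ibsp UMI in 13.8%. The class was thus rich in a bone matrix gene that did not choose it. Sost and Fgf23, genes of mature osteocytes, and Mepe, on the early osteocyte list, had 0 UMIs in the 113 trace cells, which allows up to 6.68 CPM (3 UMIs over the group), so mature osteocytes were not detectable by Sost or Fgf23 at this depth.

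The label did not hold evenly. The trace class contained 11 cells with at least 10 UMIs of Prg4, which encodes lubricin, the lubricant made by surface chondrocytes and synovial lining cells; this cut was set after the values were seen. These cells held 3509 of the class's 3604 Prg4 UMIs and 2440 of its 3158 UMIs of fibronectin (Fn1), with a median depth of 8144 UMIs. Their Prg4 level was 38254 CPM, against 29166 CPM in trace cells that passed a surface-chondrocyte marker cut, while their Ibsp level was 1265 CPM against 6148 CPM in the other 102 trace cells, and Runx2 stood at 196 against 873 CPM. The pulse class held 1 such cell. Values without these cells are also given for many of the results below.

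**Figure D1:**
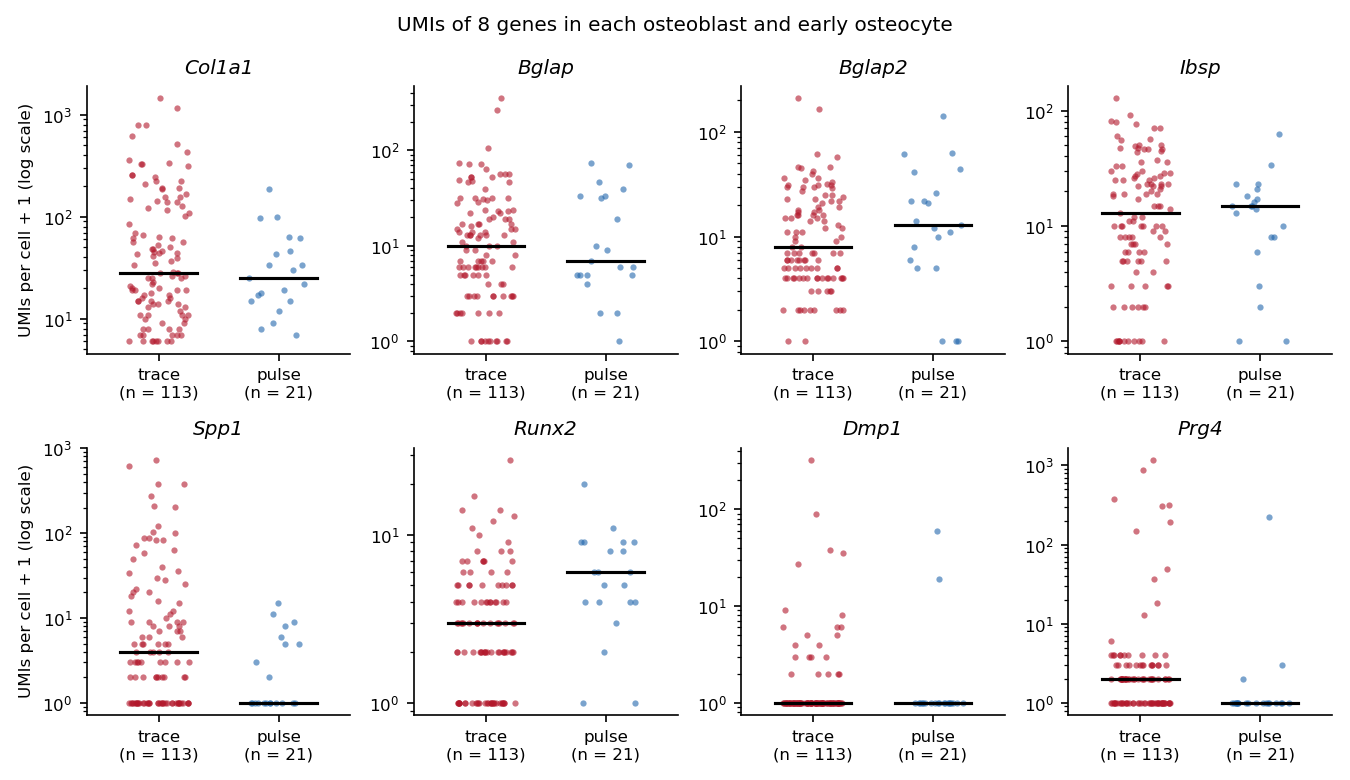
UMIs per cell (plus 1, log axis) of 8 genes in the 113 trace cells and the 21 pulse cells of the class; each dot is a cell and the bar is the median. Col1a1, Bglap, Bglap2 and Ibsp span more than an order of magnitude within each library, Spp1 has a median of 3 UMIs in trace and 0 in pulse cells, and a few cells carry most of the Dmp1 and Prg4.

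Within the trace library the class differed from the other 9134 cells by a wide set of bone genes. Among 6661 measured genes, 709 (10.6%) passed 2-fold upward and 1156 (17.4%) downward; as the class was cut by bone and cartilage genes, these shares describe it and are not a test. Among the genes that chose it, Bglap2 stood at 4022 CPM in the class and 18.1 CPM in the rest, Bglap at 5427 and 27.6 CPM, and Col1a1 at 28753 and 847 CPM. Ibsp stood at 5151 and 428 CPM, 12-fold higher (11.5 to 12.6), and Dmp1 at 1255 and 8.88 CPM.

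Of 23 measured bone matrix genes, 16 were higher and 4 lower. Col1a1, Bglap and Bglap2, which chose the class, are among the 16 by construction. Col1a2, the partner chain of type I collagen, stood at 15398 CPM in the class and 608 CPM in the rest, and Spp1 at 9282 and 765 CPM. The 4 lower genes were Dcn, Chad, Fn1 and Mgp. Of 12 genes of mineralization 7 were higher and the phosphate transporters Slc20a1 and Slc20a2 lower. Alpl was 16.4-fold higher (14 to 19.1), at 445 CPM in the class and 27.2 CPM in the rest, and Smpd3, a sphingomyelinase required for mineralization in mice, 9.64-fold. Slc36a2, an amino acid transporter, stood at 64.5 CPM in the class and 0.721 CPM in the rest, and Ifitm5, a membrane protein of mineralizing osteoblasts, at 53.4 and 1.88 CPM; they were seen in 21 and 15 cells. These ratios describe cells picked by other bone genes.

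Osteoblast transcription factors were also high, 7 of 13 reported by at least 2-fold. Runx2 stood at 735 CPM in the class and 55.0 CPM in the rest, 13.4-fold higher (11.9 to 15.0), with a UMI in 83 of the 113 cells; after thinning to 2000 UMIs, 59.0% of class cells and 14.5% of neutrophil-marker cells had one. Sp7, which acts downstream of Runx2, stood at 69.0 and 4.04 CPM and was seen in 23 cells. The vitamin D receptor Vdr was 15.8-fold higher. Dlx5, Zfp521, Creb3l1 and Zbtb16 were also higher and Msx1 lower.

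Early osteocyte genes numbered 11 higher and 2 lower of 16 measured. Phex was 13.1-fold higher and Irx5 28.2-fold. Of the cell adhesion and guidance genes, Cdh2 (N-cadherin) was 36.2-fold higher, Cdh11 (osteoblast cadherin) 20.2-fold, Cadm1 31.6-fold, and the secreted guidance cue Slit2 stood at 300.5 and 9.50 CPM. Bmp3, a bone morphogenetic protein made by osteoblasts and osteocytes, stood at 55.7 and 1.13 CPM. Pth1r, the parathyroid hormone receptor, stood at 165 and 17.1 CPM.

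Signals to osteoclasts were uneven. Tnfsf11, the osteoclast-inducing ligand RANKL, stood at 26.7 CPM in the class and 1.31 CPM in the rest, but in only 7 cells, while its decoy receptor Tnfrsf11b stood at 191 and 778 CPM. Cartilage genes were lower in 14 of 16 measured, among them Cytl1 at 0.0192 times and Chad at 0.0246 times the rest. Acan, which the rule caps, is among the 14 by construction. None of 4 measured cell cycle genes passed 2-fold in either direction, and the other 16 of that list fell below 20 CPM in both groups.

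Reporter and driver transcripts were scarce in the class although every sorted cell was gated as tdTomato-positive. Tdtomato had 19 UMIs in 10 of the 113 trace cells, 42.3 CPM (25.5 to 66.0), against 79.2 CPM in the other trace cells, a ratio of 0.534 (0.321 to 0.835). Of these UMIs 17 lay in 8 of the 11 Prg4-rich cells; the other 102 cells had 2 UMIs, 5.59 CPM (0.677 to 20.2). Procr followed the same division: 16 of its 18 UMIs lay in 4 Prg4-rich cells, and it stood at 40.1 CPM in the class against 113 CPM in the rest.

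After thinning to 2000 UMIs, 1 of 68 class cells outside the Prg4-rich group had a Tdtomato UMI (1.47%, 0.0372 to 7.92%). The share was 15.5% (12.5 to 18.8%) in Col1a1-positive cells with 2 or fewer Bglap UMIs, 16.4% in endothelial-marker cells and 3.47% (1.28 to 7.40%) in neutrophil-marker cells, 2 types that the sort was meant to remove. The interval of the class outside the Prg4-rich group therefore spanned the share in neutrophil-marker cells and ended below that in Col1a1-positive cells. Prg4-rich cells were not taken out of the Col1a1-positive cells, so these shares are not like for like. Those of them with 1 or 2 osteocalcin UMIs stood at 21214 CPM of Prg4. Tdtomato had 0 UMIs in the 23 Dmp1-detected trace cells, which allows up to 25.3 CPM, and 0 in the 21 pulse cells, which allows up to 62.8 CPM, a limit above the 36.5 CPM of the other pulse cells. A transcript missed at this depth does not show that the protein was absent, and whether free RNA or sort purity had a part in these levels was not tested.

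**Figure D2:**
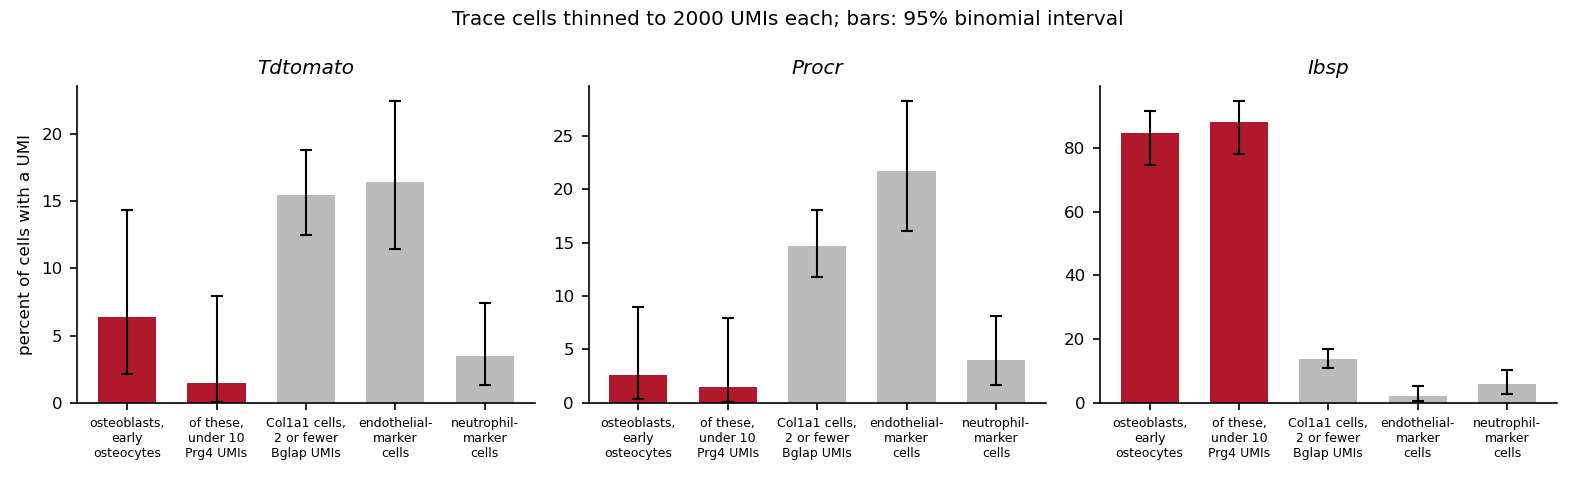
Percent of trace cells with a UMI of Tdtomato, Procr or Ibsp after thinning each cell to 2000 UMIs; red bars are the class and its cells with under 10 Prg4 UMIs, grey bars other trace cells, and error bars 95% exact binomial intervals. Ibsp marks 84.6% of the class, whereas Tdtomato marks 6.41% of it and 1.47% of its cells with few Prg4 UMIs, against 15.5% of Col1a1-positive cells with few Bglap UMIs. Prg4-rich cells were not taken out of the grey bars.

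Dmp1, by whose detection the class was divided, had at least 1 UMI in 23 of the 113 trace cells (20.4%, 13.4 to 29.0%) and in 2 of the 21 pulse cells (9.52%, 1.17 to 30.4%). Whether this division separates cells on the way to the osteocyte state was not tested. In trace cells thinned to 2000 UMIs the share was 17.9% (14 of 78), against 0.578% (0.0146 to 3.18%) of neutrophil-marker cells, and the median depth was 3266 UMIs in Dmp1-detected and 2741 UMIs in Dmp1-negative trace cells. Most positive cells carried little of it. The median among them was 4 UMIs, and 1 cell held 323 of the 564 UMIs. That cell, singled out after its values were seen, also held 22 of the 32 Phex UMIs and 12 of the 19 Irx5 UMIs of the Dmp1-detected cells, with 1155 UMIs of Col1a1 and 1 of Spp1. The cells with the next highest Dmp1 counts, 87 and 37 UMIs, instead held 375 and 733 UMIs of Spp1 and 0 of Phex. Dmp1 and Phex were thus highest in the same cell, and Spp1 in another.

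In the trace library 6015 genes were measured between Dmp1-detected and Dmp1-negative cells. In Dmp1-detected cells 673 (11.2%) were higher by 2-fold or more and 1461 (24.3%) lower; intervals lay off 1 for 301 and 534 of them, and 2296 genes had 3 or fewer UMIs in a group. The median log2 ratio over all genes was -0.31, and with that median set to 0 the split became 1024 higher and 1128 lower.

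Type I collagen and osteopontin were the abundant matrix genes on the Dmp1 side. Col1a1 had 5 to 1453 UMIs per Dmp1-detected cell, with a median of 189, against 5 to 796 with a median of 25 in Dmp1-negative cells; the ranges overlapped. As summed levels Col1a1 stood at 57244 CPM in Dmp1-detected and 18535 CPM in Dmp1-negative cells, 3.09-fold higher (2.98 to 3.2), a gene that also chose the class. Col1a2 stood at 34276 and 8628 CPM, 3.97-fold higher. Spp1 had 0 to 733 UMIs per Dmp1-detected cell with a median of 33, against 0 to 382 with a median of 2 in Dmp1-negative cells. It stood at 24537 and 3810 CPM, 6.44-fold higher (6.03 to 6.88), was detected in 20 of 23 against 57 of 90 cells, and was 5.23-fold higher without the Prg4-rich cells. Sparc (osteonectin), which binds collagen and calcium, was 1.85-fold higher.

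The classic osteoblast secretory products differed much less. Bglap stood at 8069 CPM in Dmp1-detected cells and 4479 CPM in Dmp1-negative cells, 1.80-fold higher, and Bglap2 at 4840 and 3729 CPM, 1.30-fold. Ibsp stood at 5970 and 4857 CPM, 1.23-fold higher (1.12 to 1.34), and at 0.974 times without the Prg4-rich cells; by the median cell it was 3636 CPM in Dmp1-detected and 4614 CPM in Dmp1-negative cells. Runx2 stood at 742 and 732 CPM, a ratio of 1.01, and Sp7 had a ratio of 2.01 with an interval from 0.907 to 4.35.

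**Figure D3:**
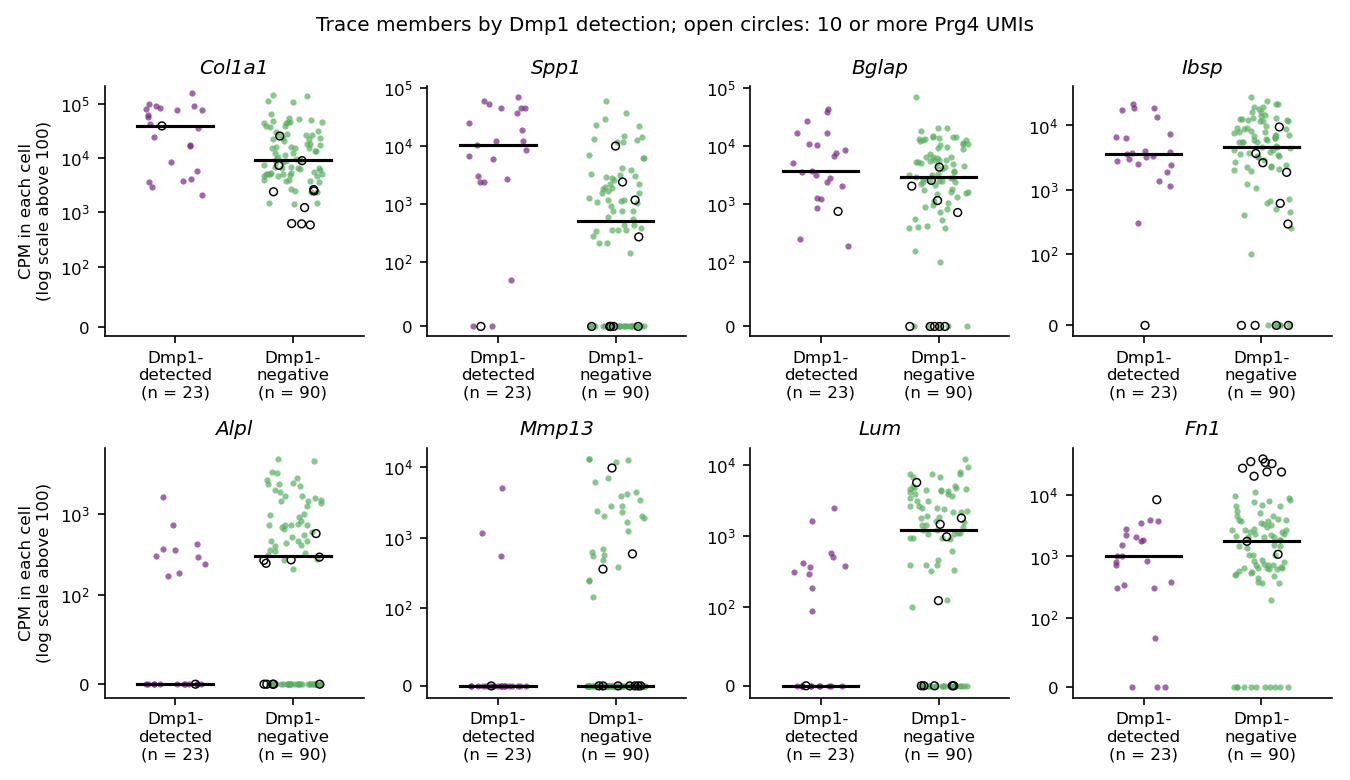
CPM in each trace cell of the class for 8 genes, Dmp1-detected cells on the left and Dmp1-negative cells on the right (log axis above 100, linear below it); bars are medians and open circles are cells with 10 or more Prg4 UMIs. The median for Col1a1 is 38951 CPM in Dmp1-detected and 9347 CPM in Dmp1-negative cells, the medians for Bglap are close, and Lum has a median of 0 on the Dmp1-detected side.

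Other collagen and osteocyte genes were higher in Dmp1-detected cells, on fewer UMIs. Col11a1, a minor fibrillar collagen, stood at 1256 CPM in Dmp1-detected and 187 CPM in Dmp1-negative cells, 6.70-fold higher (4.95 to 9.16), with a UMI in 17 and 28 cells. Col11a2, its partner chain and a cartilage marker, stood at 919 and 142 CPM. Phex stood at 270 and 72.6 CPM, 3.72-fold higher (2.12 to 6.6), in 6 and 4 cells, and Fam20c, the kinase that phosphorylates secreted matrix proteins such as Dmp1, at 683 and 184 CPM, 3.70-fold (2.62 to 5.25). Without the 5 deepest Dmp1-detected cells, a choice made after seeing the data, Phex was at a log2 ratio of 0.68 and Fam20c at 0.78, both under 2-fold. Irx5 was 4.41-fold higher in 5 and 10 cells. Of 16 measured early osteocyte genes 5 were higher and 2 lower, against 11.2% higher and 24.3% lower over all genes. Dmp1 is among the 5 by construction. Gja1, the gap junction protein of osteocyte processes, was 1.91-fold higher, and Pdpn, a membrane protein of early osteocyte processes, was at 0.709 times. Prg4-rich cells held 18, 8, 6, 4, 2 and 1 of the 59 Dmp1-negative Pdpn UMIs, so the Pdpn ratio rests in large part on them.

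Secreted regulators moved in both directions. Sfrp4, a secreted antagonist of Wnt ligands, stood at 244 CPM in Dmp1-detected and 36.3 CPM in Dmp1-negative cells, 6.74-fold higher (3.33 to 14.5), in 11 of 23 and 10 of 90 cells. Vegfa, the vascular growth factor, stood at 700 and 124 CPM, 5.64-fold higher (3.84 to 8.42). Tnfrsf11b stood at 50.6 and 242 CPM, 0.209 times, and Kitl, the stem cell factor of the marrow niche, had 0 and 40 UMIs, at most 0.209 times at the floor of 3 UMIs. Of 12 osteoclast coupling and niche genes 3 were higher and 8 lower, against 11.2% higher and 24.3% lower over all genes. Of the 10 still measured without the Prg4-rich cells 3 were higher and 4 lower.

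Glycolysis genes were the group with the most members higher, 10 of 16 with 1 lower and a median log2 ratio of 1.15. Over all genes 11.2% were higher and 24.3% lower. Without the Prg4-rich cells 12 glycolysis genes were higher and 1 lower. Gapdh stood at 683 CPM in Dmp1-detected and 245 CPM in Dmp1-negative cells, 2.79-fold higher (2.02 to 3.84), Ldha at 582 and 278 CPM, 2.09-fold, and Eno1 at 143 and 45.4 CPM, 3.16-fold (1.48 to 6.80). The lactate exporter Slc16a3 was 11.2-fold higher, and the glucose transporter Slc2a3 was at 0.232 times. Without the 5 deepest Dmp1-detected cells Gapdh was at a log2 ratio of 0.64, Ldha at 0.39 and Eno1 at -1.45 (-6.84 to 1.25), so these ratios rest in part on a few cells. Collagen crosslinking and processing genes were mixed, 4 higher and 2 lower of 29, against the same 11.2% and 24.3% over all genes. Lysyl oxidase (Lox) was 3.43-fold and the procollagen C-proteinase Bmp1 3.2-fold higher.

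Alkaline phosphatase, collagenase-3 and type III collagen were lower in Dmp1-detected cells. Alpl stood at 194 CPM in Dmp1-detected and 535 CPM in Dmp1-negative cells, 0.362 times (0.224 to 0.561), with a UMI in 10 of 23 and 52 of 90 cells. Mmp13 (collagenase-3), which cleaves fibrillar collagen in bone and cartilage, stood at 211 and 977 CPM, in 3 and 31 cells. Col3a1, the type III collagen of loose tissue and periosteum, stood at 59.0 and 1391 CPM, 0.0424 times (0.0170 to 0.0881), in 3 and 55 cells, and it was as low without the Prg4-rich cells, at 0.037 times. Of 12 matrix proteases and their inhibitors 2 were higher and 6 lower, against 11.2% higher and 24.3% lower over all genes. Among the lower were Ctsk at 0.407, Htra1 at 0.0996 and Mmp14 at 0.488 times (0.531 without the Prg4-rich cells). Mmp16 and the inhibitor Timp1 were the 2 higher. Fn1 stood at 1239 and 9106 CPM, 0.136 times, but at 0.479 times without the Prg4-rich cells.

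Of 24 measured bone matrix genes 6 were higher and 7 lower in Dmp1-detected cells, against 11.2% higher and 24.3% lower over all genes. Without the Prg4-rich cells 5 were higher and 8 lower. The lower genes included Omd, Postn and Col12a1, while the proteoglycans Dcn and Bgn, at 0.710 times and 1.22-fold, stayed within 2-fold. Lum (lumican), named after its values were seen, stood at 228 CPM in Dmp1-detected and 1651 CPM in Dmp1-negative cells, 0.138 times, in 11 and 65 cells. Fmod (fibromodulin) had 0 UMIs in Dmp1-detected cells and 195 UMIs in 34 Dmp1-negative cells, at most 0.0429 times. Omd (osteomodulin) stood at 92.8 and 454 CPM. Comp, a cartilage and tendon matrix protein, stood at 75.9 and 1001 CPM, in 4 and 57 cells. The insulin-like growth factor binding protein Igfbp5, of the signalling list, stood at 33.7 and 771 CPM. Postn was at 0.323 times and Col12a1 at 0.195 times.

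Progenitor and preosteoblast genes were mostly lower in Dmp1-detected cells, 10 of 13 with 1 higher and a median log2 ratio of -1.59. Over all genes 24.3% were lower and 11.2% higher. Without the Prg4-rich cells 8 of 11 progenitor and preosteoblast genes were lower. Aspn was at 0.181, Twist1 at 0.232, Ebf1 at 0.227, Pdgfra at 0.332 and Pdgfrb at 0.328 times. Of 13 osteoblast transcription factors reported 3 were higher (Sp7, Tcf7, Vdr) and 3 lower (Dlx5, Zfp521, Zbtb16). Their median log2 ratio was 0.29, against -0.31 over all genes. Without the Prg4-rich cells none was higher and the same 3 were lower. Zfp521, which restrains differentiation, stood at 67.5 and 287 CPM, and Dlx5 had 0 and 22 UMIs. Of 19 immediate early and heat shock genes 10 were lower and 1 higher: Jun stood at 211 and 832 CPM, 0.253 times, Fos at 464 and 1119 CPM and Hspb1 at 16.9 and 248 CPM. Immediate early genes are also raised by tissue digestion, and the part of the digestion in these levels was not tested.

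Markers of other cell types moved with the same division. The summed level of 16 chondrocyte markers was 1670 CPM in Dmp1-detected cells, where 11 had a UMI and Col9a1, Col9a2, Col9a3, Matn1 and Matn3 were at 0, against 12363 CPM in Dmp1-negative cells, where 14 had one. Prg4 gave 34 of the 198 UMIs in Dmp1-detected cells and 3570 of the 4088 in Dmp1-negative cells; without it the sums were 1383 and 1567 CPM. Synovial and loose connective tissue markers summed to 928 and 12348 CPM, and to 641 and 1551 CPM without Prg4. Of 12 measured 8 were lower, Prg4 and Pdgfra among them, and none higher, against 24.3% lower and 11.2% higher over all genes. Of the 7 still measured without the Prg4-rich cells 3 were lower and 1, Hbegf, higher. Pdgfra is also on the progenitor list. Tenocyte markers summed to 666 and 1606 CPM, with the tendon genes Scx, Tnmd and Kera at 0 on both sides. Neutrophil markers summed to 8.43 and 60.5 CPM and endothelial markers to 8.43 and 133 CPM, with Cldn5 at 0 on both sides, and osteoclast markers to 565 and 405 CPM, with Mmp9, Dcstamp, Ocstamp, Calcr and Oscar at 0. Mural, adipocyte, and B-lineage and erythroid markers were also lower as sums in Dmp1-detected cells, at 186 against 245 CPM, 42.2 against 81.7 CPM and 118 against 466 CPM. Of the chondrocyte list, Col2a1 went the other way, 7.67-fold higher in 4 against 8 cells. The part of cartilage or connective tissue RNA in the lower genes was not tested; Alpl, Mmp13, Lum, Comp and Col3a1 kept their side of 2-fold without the Prg4-rich cells.

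**Figure D4:**
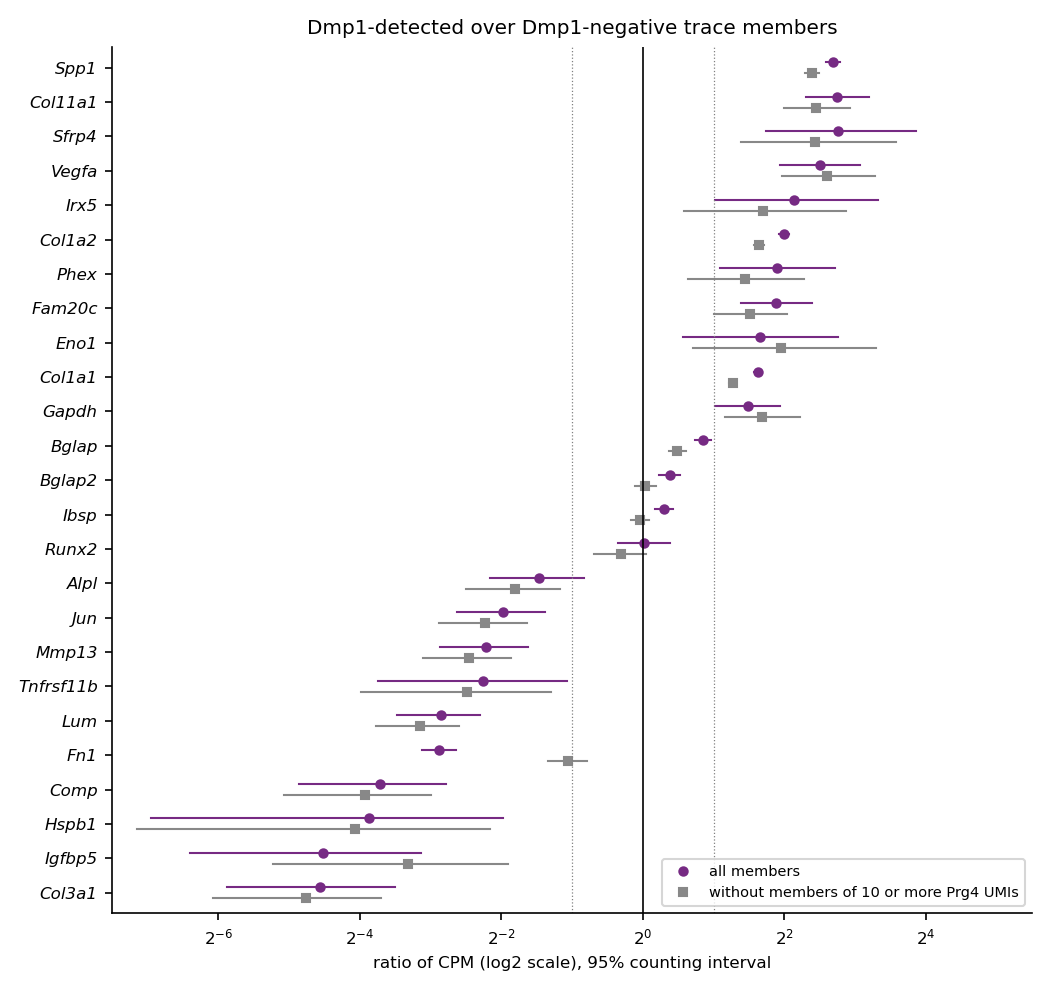
Ratio of CPM in Dmp1-detected over Dmp1-negative trace cells (log2 axis; dotted lines at 2-fold) with 95% counting intervals, for all cells of the class (purple circles) and without cells of 10 or more Prg4 UMIs (grey squares). Spp1, Col11a1, Sfrp4 and Vegfa lie above 2-fold in both, Runx2 and Ibsp lie near 1, and Fn1 moves from 0.136 to 0.479 when the Prg4-rich cells are left out.

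Many of the genes with the largest ratios rested on few cells. Of the 12 highest genes of at least 100 CPM, Nes had 84.2% and Tfpi2 98.1% of its Dmp1-detected UMIs in 1 cell, and Mustn1, a muscle and skeletal nuclear protein, 79.0%. Smox (spermine oxidase) was spread more widely, 13.5-fold higher in 8 and 6 cells, and Cpz, a Wnt-binding carboxypeptidase, had 15 UMIs in 6 Dmp1-detected cells and 0 in Dmp1-negative cells. Among the 12 lowest, 1 cell held 94.2% of the Dmp1-negative Cxcl1 UMIs. In the pulse library only 2 cells had Dmp1, with 58 and 18 UMIs, against 19 without. There Bglap2 had 0 UMIs in Dmp1-detected and 510 in Dmp1-negative cells, Ibsp was at 0.321 times, Alpl at 0.0656 times and Col1a2 at 2.01-fold. As in the trace library Alpl was past 2-fold lower and Col1a2 past 2-fold higher. In the Dmp1-detected pulse cells Alpl had 1 UMI, and 1 cell held 103 of the 108 Col1a2 UMIs. Spp1, at 0.918 times, was not higher. Unlike in the trace library, Col1a1 was lower, at 13843 CPM in Dmp1-detected and 18473 CPM in Dmp1-negative cells, and so was Bglap, at 858 and 10003 CPM.

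The class was a larger share of the trace library, 1.22% of cells (1.01 to 1.47%) against 0.321% (0.199 to 0.491%) of the pulse library, a ratio of 3.80 (2.37 to 6.38). Both shares depend on how many of each sorted type were recovered. Of 6281 genes measured between trace and pulse cells of the class, 509 (8.1%) were higher by 2-fold or more in trace cells and 2077 (33.1%) lower; intervals lay off 1 for 129 and 798, and 3559 genes had 3 or fewer UMIs in a group. The median log2 ratio was -0.57, and with it set to 0 the split was 1161 higher and 983 lower, so a gene's ratio is best read against that shift and against the same libraries' other cells.

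Spp1 (osteopontin) was higher in trace cells. It had 0 to 733 UMIs per trace cell with a median of 3, in 77 of 113 cells, against 0 to 14 with a median of 0, in 9 of 21 pulse cells. It stood at 9282 CPM in trace and 1150 CPM in pulse cells, 8.07-fold higher (6.19 to 10.7), against 1.45-fold in all other cells; 5 trace cells held 57.0% of its UMIs, and among Dmp1-negative cells alone the log2 ratio was 1.70. A Spp1 UMI was also seen in 28.9% of thinned neutrophil-marker trace cells, so its detection, unlike its level, is a weak mark of the class. Mgp, an inhibitor of calcification, stood at 476 and 41.8 CPM (2 UMIs in pulse cells), 11.4-fold (3.11 to 94.6), and at 5.63-fold without the Prg4-rich cells.

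Of the type I collagen and osteocalcin genes, Col1a2 was past 2-fold higher and Bglap2 past 2-fold lower in trace cells, and Col1a1 and Bglap were neither. Col1a1 stood at 28753 CPM in trace and 17571 CPM in pulse cells, 1.64-fold (1.53 to 1.76), and Col1a2 at 15398 and 6903 CPM, 2.23-fold (2.00 to 2.50), against 2.85-fold and 1.88-fold in the other cells. By the median cell Col1a1 was 12108 CPM in trace and 12502 CPM in pulse cells, 5 cells held 37.3% of its trace UMIs, and its ratio was 1.003 among Dmp1-negative cells alone. Bglap stood at 5427 and 8221 CPM, 0.660 times, and Bglap2 at 4022 and 10668 CPM, 0.377 times (0.342 to 0.417). Together they stood at 9449 CPM in trace and 18888 CPM in pulse cells, and by the median cell at 6679 and 11028 CPM. Unscaled, their sum had a median of 18 UMIs per cell in both libraries, at median depths of 2842 UMIs in trace and 1801 UMIs in pulse cells. Ibsp stood at 5151 and 6380 CPM, 0.807 times (0.716 to 0.913), where the other cells had 1.88-fold. Sparc was at 1.09-fold in the class and 0.154 times in the other cells.

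Runx2, Alpl and Smpd3 were lower in trace cells. Runx2 stood at 735 CPM in trace and 2364 CPM in pulse cells, 0.311 times (0.250 to 0.388), with a UMI in 83 of 113 and 19 of 21 cells; in the other cells the ratio was 0.572. Sp7 had a ratio of 0.825 (0.292 to 3.22). Of 13 transcription factors reported none was higher and 3 were lower, Runx2, its partner Cbfb, and Sox4; their median log2 ratio of -0.42 lay above the -0.57 of all genes, of which 33.1% were lower. Of 10 mineralization genes 4 were lower (Alpl, Smpd3, Ifitm5, Slc36a2) and 2 higher (Slc20a1, Cthrc1), the last 2 on 1 pulse UMI each. Alpl stood at 445 and 1339 CPM, 0.333 times (0.250 to 0.448), Smpd3 at 185 and 1171 CPM, 0.158 times, and Ifitm5 at 53.4 and 293 CPM, 0.182 times. After thinning to 2000 UMIs, which left 78 trace and 7 pulse cells, Alpl had a log2 ratio of 0.49.

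The lists that hold receptors and cadherins were not lower beyond the share over all genes. Of 21 PTH, Wnt and BMP signalling genes 1 was higher and 6 were lower. Of 19 cell shape and junction genes 6 were higher and 6 lower. Over all genes 8.1% were higher and 33.1% lower, so the lower counts of both lists were near that share. The genes of these lists named next are from their lower side. Fgfr2, a receptor for fibroblast growth factors, stood at 354 and 1422 CPM, 0.249 times, against 0.527 in the other cells. Cdh11 was at 0.285, Cdh2 at 0.264 and Lrp4, the sclerostin-binding receptor, at 0.258 times. Thbs4, a matrix protein of tendon, stood at 899 and 3577 CPM, 0.251 times, while it was 1.20-fold in the other cells. Chad (chondroadherin) stood at 51.2 and 711 CPM, 0.072 times, against 0.767 in the other cells.

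Glycolysis genes were 6 higher and 2 lower of 13 in trace cells, against 8.1% higher and 33.1% lower over all genes. Ldha stood at 358 CPM in trace and 83.7 CPM in pulse cells, 4.28-fold (1.64 to 15.9), and Gapdh at 361 and 146 CPM, 2.46-fold (1.17 to 6.22), where the other cells had 1.41-fold and 0.813 times. Of the cell shape genes on the trace side, Vim (vimentin) stood at 1471 and 397 CPM and Pdpn at 165 and 20.9 CPM, the second resting on 1 pulse UMI (1.37 to 315). Prg4-rich cells held 18, 8, 6, 4, 2 and 1 of the 74 trace Pdpn UMIs, and Pdpn was past 2-fold higher in 11 of 15 alternatives. Ribosomal RNA-associated transcripts were higher in 5 of 6 in the class and in 6 of 6 in all other cells, a difference between whole libraries. Summed chondrocyte markers were 9540 CPM in trace and 7217 CPM in pulse cells of the class, but 1518 and 2510 CPM without Prg4, and tenocyte markers 1358 and 3849 CPM; their part in these ratios was not tested.

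**Figure D5:**
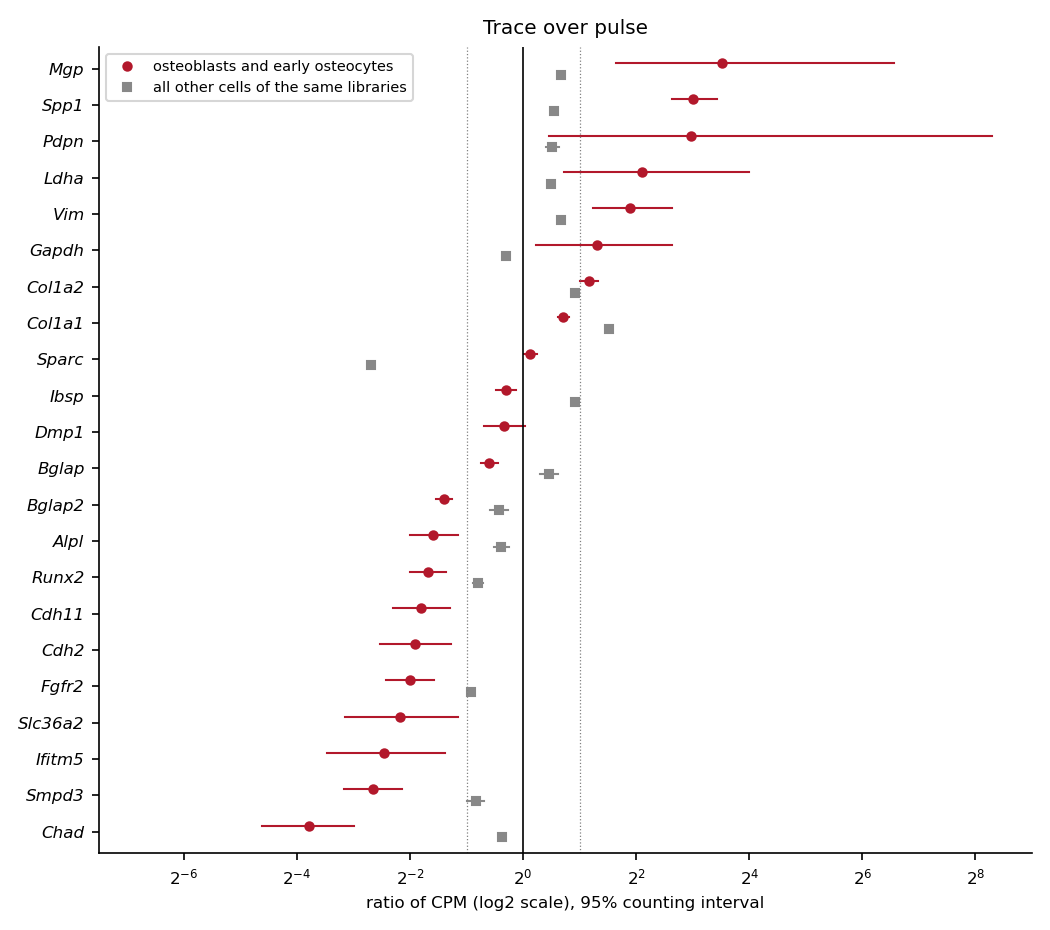
Ratio of CPM in trace over pulse (log2 axis; dotted lines at 2-fold) with 95% counting intervals for the 113 and 21 cells of the class (red circles) and for all other cells of the same libraries (grey squares, absent where a gene was under 20 CPM in both). Spp1 is 8.07-fold higher in the class and 1.45-fold in other cells, Ibsp is below 1 in the class and above 1 in other cells, and Runx2 and Smpd3 lie left of the lower 2-fold line.

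Cells on either side of the bounds of the rule held Ibsp. Trace cells just inside the Col1a1 bound, with 5 or 6 UMIs, numbered 13 and had 3717 CPM of Ibsp, and the 15 just outside it, with 3 or 4 UMIs, had 5022 CPM. Just inside the osteocalcin bound, with 3 or 4 UMIs, lay 17 cells at 1667 CPM of Ibsp, and just outside it, with 1 or 2, lay 64 cells at 6848 CPM. The 20 cells with 1 Acan UMI had 3806 CPM and the 6 with 2 had 11409 CPM. With the Prg4-rich cells kept, Ibsp in these trace cells was higher just beyond each bound than just within it. The 13 cells within the Col1a1 bound included Prg4-rich cells of 10227 and 8144 UMIs, with 0 and 5 UMIs of Ibsp. Prg4 stood at 31581 CPM within that bound and 448 CPM beyond it, so the order of Ibsp there rests on these cells. Among the few pulse cells Ibsp was lower beyond the Col1a1 bound, at 2704 CPM in 1 cell within and 1455 CPM in 8 beyond. It was also lower beyond the osteocalcin bound, at 3542 CPM in 4 and 1721 CPM in 10. At the Acan bound it was higher beyond, at 2775 CPM in 4 pulse cells within and 3162 CPM in 2 beyond.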

How the data were processed

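The deposited matrices hold unnormalized UMI counts of 2 libraries for called barcodes (10423 trace, 6863 pulse), as the authors' pipeline wrote them. Per the labels' protocols they were 10x Genomics 3' libraries. The submitters' processing notes name Cell Ranger 3.0.1 and build mm10, per the file headers the matrices were written by version 7.1.0, and STAR, Seurat, HTSeq and DESeq2 are listed in the notes with no role. Of 32286 features, 32158 matched GENCODE mouse release 21.

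From the deposited counts, cells were filtered and chosen by the rule given above (1176 trace and 330 pulse barcodes were left out), UMIs were summed per group, and CPM, their ratios with exact conditional Poisson intervals (95%) and shares with exact Clopper-Pearson intervals were computed in Python 3.11.15 with numpy 2.4.6, scipy 1.17.1 and pandas 2.3.3. A measured gene had at least 20 CPM and more than 3 UMIs in at least 1 group; a group at 0 UMIs was set at 3 UMIs, and the gene was kept only if that floor lay below the other group's CPM. PCR and capture add error that these intervals do not hold. The members, the 26 gene lists and the tests were chosen with earlier results of these data known. Text names the 5 markers, Procr, Tdtomato and Acan, the 12 highest and 12 lowest genes of at least 100 CPM in each comparison (without Gm and Rik models and mitochondrial, ribosomal, haemoglobin or immunoglobulin genes), up to 5 genes per list with the largest ratios, and any gene of the bone matrix, mineralization, transcription factor and osteocyte lists; other genes illustrate a list's count and, like Lum, were chosen after their values were seen. Marker classes of other cells were cut at 20 UMIs of neutrophil genes, 3 of endothelial genes, or 20 of Prg4 with 2 of Acan. Scrublet (scanpy 1.11.5) marked 0 cells in either library and so has not worked; doublets were kept, and the top 5% of scores was left out as an alternative. On simulated counts the 2-fold call recovered 62 of 67 genes altered 3-fold and called 24 of 1250 unaltered ones for the Dmp1 comparison (6042 genes), and 54 of 67 and 106 of 1250 for trace over pulse (5957 genes). The simulated counts held counting error only, drawn from 1 summed trace profile, and only genes of at least 100 CPM were altered or scored. They hold no spread between cells, so these rates do not carry over to the real calls, made from 20 CPM. 1 gene of the transcription factor list is not reported here.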

Additional observations from a re-analysis of the deposited data

How the results depend on the processing

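No paired analysis was possible because each group was 1 library, and no replicate could be left out for the same reason. The share of trace cells in the class was 0.974% with at least 1000 detected genes, 0.995% with Col1a1 at 10 or more UMIs, 0.833% with osteocalcin at 10 or more and 1.01% with Acan at 0; the pulse share was 0.176% with at least 1000 genes. In the Dmp1 comparison the genes at least 2-fold higher numbered 1024 with the median ratio set to 1, 1324 with 1 UMI required in each group and 438 after thinning to 2000 UMIs (17 and 61 cells), where 610 were lower. Between trace and pulse they numbered 1161 higher and 983 lower with the median set to 1, 823 higher by the mean of per-cell CPM, 184 higher and 1223 lower after thinning, and 120 higher and 975 lower in Dmp1-detected cells alone.

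Across 17 alternatives Spp1 stayed between 4.33-fold and 8.01-fold and Col1a1 between 2.02-fold and 3.84-fold higher in Dmp1-detected cells, Alpl between 0.250 and 0.450 and Col3a1 between 0.0268 and 0.0849 times, whereas Phex ran between 1.08-fold and 8.0-fold and Ibsp between 0.903 and 1.64. The log2 ratio of Eno1 was -1.45 without the 5 deepest Dmp1-detected cells, an alternative added after seeing the data, as were leaving out the Prg4-rich cells and the deepest cell of each group. Between trace and pulse, Alpl was at 0.49 after thinning; in Dmp1-detected cells alone (23 and 2) the log2 ratio was 3.91 for Bglap2, 0.85 for Alpl, 1.14 for Smpd3, 1.01 for Thbs4 and 0.50 for Lrp4. For each of these the cause was not tested. The 21 pulse cells and the 2 with Dmp1 set the depth limit of every trace against pulse value.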

Other observations

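Cells that met the collagen and osteocalcin bounds but had 2 or more Acan UMIs numbered 24 in the trace library and lay outside the class. Ibsp stood at 5151 CPM in the 113 trace cells of the class and at 18763 CPM in these 24, and the median depth was 2842 and 6857 UMIs. The 24 cells also had 7944 CPM of Spp1, 1648 CPM of Mmp13 and 4701 CPM of Col2a1, the main collagen of cartilage. Phex had 1 UMI among them and Dmp1 stood at 132 CPM. Mmp13, Spp1 and Ibsp are shared by osteoblasts and terminal hypertrophic chondrocytes, and doublets were not removed, so what these cells are was not tested.

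Across the 113 trace cells, levels per cell were ordered alike for Col1a1 and Col1a2 (Spearman's rho 0.88) and for Bglap and Bglap2 (0.71). Outside the matrix core, Lum went with Fmod (0.61), Lum with Mmp13 (0.53) and Spp1 with Dmp1 (0.41), while Lum and Col1a1 were at -0.15. These values describe cells of 1 library that share its depth and free RNA. The pairs were picked after earlier values were seen.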
